A study of Arabidopsis thaliana with 6 samples.

Results

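The genes described here are the AGAMOUS clade of Arabidopsis thaliana, AG (AT4G18960), SHP1 (AT3G58780), SHP2 (AT2G42830) and STK (AT4G09960), 4 of 27444 protein-coding genes on 5 chromosomes. They were chosen by name, and every peak of the MADS-domain protein FRUITFULL (FUL) with its summit in one of them or within 3 kb of either end was taken. This gave 4 of 3650 peaks from inflorescence meristems (IM) and 5 of 3494 peaks from pistils. The binding was mapped by ChIP-seq, in which DNA bound to a protein is precipitated and sequenced, with FUL fused to GFP, expressed from the FUL promoter and caught with anti-GFP microbeads. There were 2 ChIP replicates per tissue and, without antibody, 1 input library per tissue, which makes 6 samples.

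All plants were from a Ler/Col F2 ecotype, grew at 21 °C in long days (16 h light), and received no treatment. IM plants carried the pFUL:FUL-GFP transgene, the mutations ap1-1 and cal-1 and a 35S:AP1-GR transgene, were 4 to 5 weeks old and were not induced, so their apices held inflorescence-like meristems in place of flowers. Pistil plants carried the same FUL transgene in the ful-1 mutant, and the pistils were of stages 12 to 16. Tissue and genotype therefore differed together and cannot be told apart, and binding was read only in cells where the FUL promoter is active. Each tissue is represented by 1 peak list called on its replicates together, so no spread between replicates, and no test between the tissues, could be had. Read depth behind the lists is unknown.

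The members of this clade encode MADS-domain transcription factors that bind DNA as parts of larger complexes with SEPALLATA proteins. AG specifies stamens and carpels and ends stem cell activity in the flower. SHP1 and SHP2 act redundantly in the valve margin, along which the pod opens, and STK sets ovule identity and the stalk by which seeds detach. AG is known for regulatory sequence in its large second intron. FUL is known to keep SHP1 and SHP2 expression out of the fruit valves. A summit near a gene shows where signal was highest and not that the gene is regulated.

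FUL summits lay at AG, SHP1 and SHP2 in both tissues and at STK in neither. AG had the most, with 2 summits in IM and 3 in pistils, while SHP1 and SHP2 had 1 each in each tissue. Over all protein-coding genes, 23.7% had a summit by the same rule in IM, 21.3% in pistils and 15.3% in both. With 3 of 4 members in each tissue, the clade is too small for its share to be read further than this. All 4 genes are long, longer than between 87.2% (SHP2) and 96.1% (AG) of protein-coding genes, and a longer gene offers a longer window for summits. STK, which had no summit, is longer than 93.7% of genes. The part of length in the summit counts was not tested.

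**Figure D1:**
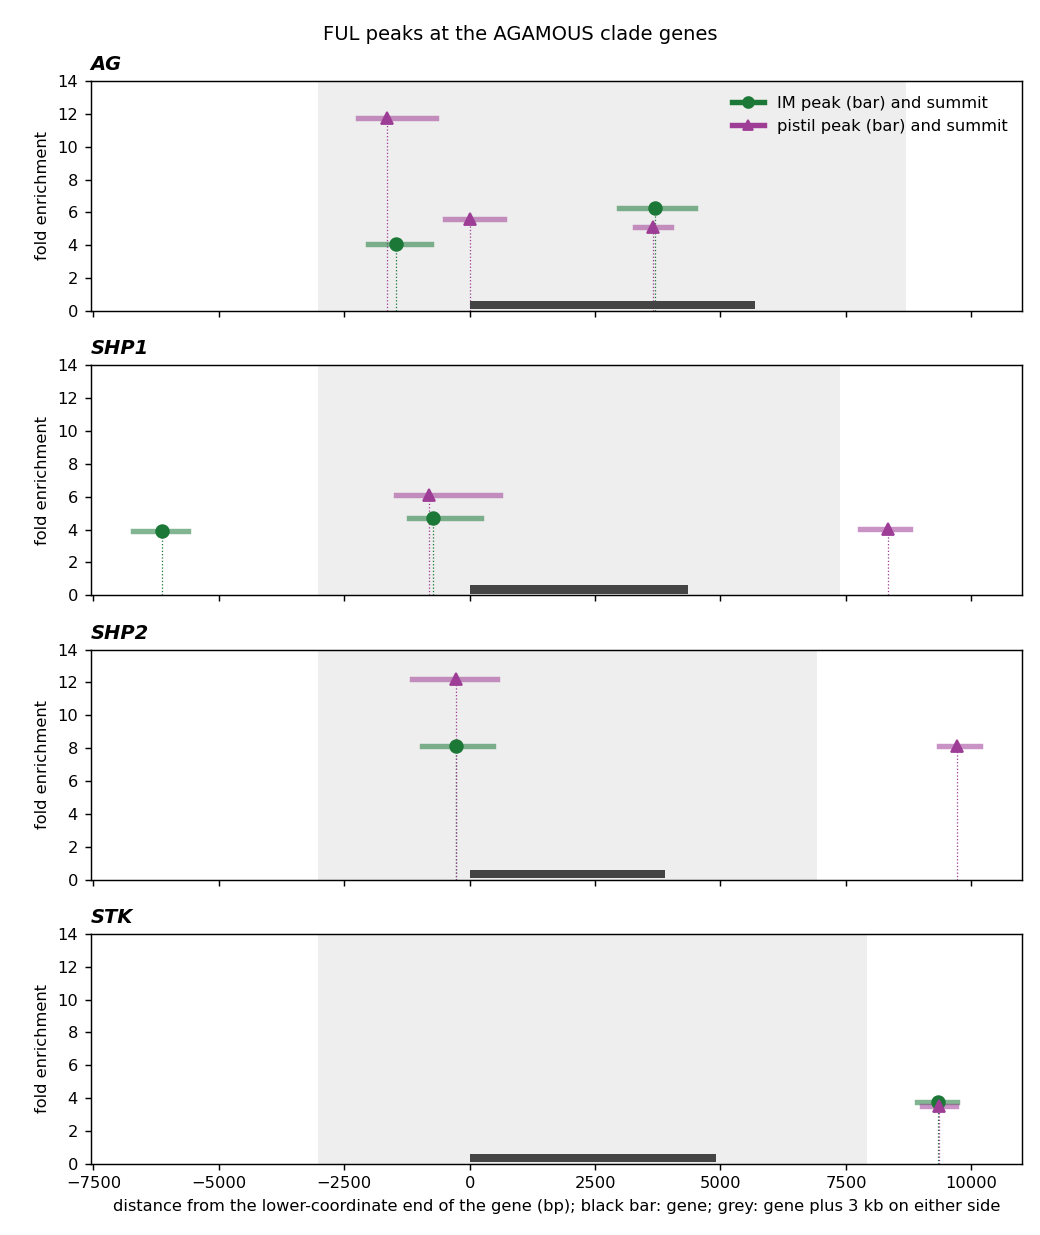
Peaks of FUL within 10 kb of AG, SHP1, SHP2 and STK, with distance in bp from the lower-coordinate end of the gene on the x axis and the authors' fold enrichment on the y axis, where bars span the peak and symbols mark the summit (circles IM, triangles pistil). AG has 2 IM and 3 pistil summits in the grey window of 3 kb, SHP1 and SHP2 have 1 of each, and STK has none, its nearest ones lying 4431 bp (IM) and 4442 bp (pistil) away; folds are to be compared within a tissue.

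AG carried FUL at a site beside the gene, at a site inside it and, in pistils, at a site on its edge. The flanking site was the strongest AG site in pistils, with a fold enrichment of 11.7 at the summit (chromosome 4, 10380620 to 10382183, TAIR10, summit at 10381217). In IM the same site had a fold of 4.10 (10380837 to 10382085, summit at 10381384). Its summit lay 1639 bp from AG in pistils and 1472 bp in IM, on the lower-coordinate side, and the peak stopped 673 bp and 771 bp short of the gene. AG was nevertheless the nearest protein-coding gene, since AT4G18950 on the other side lay 2801 bp and 2968 bp from the summits.

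The site inside AG was the strongest AG site in IM, with a fold of 6.28 (10385842 to 10387339, summit at 10386552). In pistils it was the weakest of the 3, with a fold of 5.09 (10386154 to 10386864, summit at 10386501). These summits stood 65.0% and 64.1% of the way along the gene from its lower-coordinate end. The gene table used here holds neither strand nor exons, so whether they fall in the second intron was not tested. The IM peak was 1498 bp wide, wider than 73.3% of IM peaks, and the pistil peak 711 bp wide, wider than 27.2% of pistil peaks.

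The edge site was found in the pistil list and not in the IM list. Its summit stood at the lower-coordinate end of AG (10382369 to 10383544, summit at 10382870), with a fold of 5.59. The gene table placed it 14 bp inside the gene, but gene ends can differ between annotations, so a place just inside or just outside cannot be told apart. The −log10 p at this summit, the authors' measure of how far the signal exceeded the background, was 124, where the lowest value was 34.4 in the pistil list and 22.4 in the IM list. Values were higher in the pistil list in general, with a median of 73.9 against 42.7 in IM. The pistil value therefore does not tell whether such a site would have been listed in IM. The deposited peaks carry numbers that rise along each chromosome and have gaps. The gaps were taken to be called peaks left out of the list, which the sources used here do not state. Between the flanking and the inside IM peaks, which are 3756 bp apart, the numbers ran on without a gap. On this reading no numbered IM call was left out of that stretch. In pistils 1 number was missing between the edge and the inside peak. Some peaks also carry a letter after the number, 992 in IM and 1128 in pistils, and no number is listed more than once, so other lettered summits under a number may have been left out. In the clade this concerns the AG flanking peak in pistils (a) and the SHP1 peaks (a in IM, b in pistils), and the counts of summits here are of listed summits.

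The order of the AG sites thus differed between the lists. In IM the inside site had a −log10 p of 131.5 and the flanking site 53.1. In pistils the flanking site had 442, the edge site 124 and the inside site 114. Ranked by fold, the inside site was 280th of 3650 in IM and 1118th of 3494 in pistils, whereas the flanking site was 1417th in IM and 55th in pistils. Among the 2067 peaks with exactly 1 partner in the other list, so that both rankings have the same length, the flanking site was 1068th in IM and 42nd in pistils. Its gain of 1026 places exceeded that of 93.4% of these pairs. The inside site was 251st in IM and 837th in pistils, a gain of -586 places, where 17.8% of pairs had a smaller gain. A change of the strongest site is common, however. It was seen in 113 of the 322 genes with at least 2 different sites matched between the lists (35.1%).

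Having 3 pistil summits is itself uncommon. At least 3 summits were found at 104 genes in pistils (0.379%), at least 2 in IM at 975 genes (3.55%), and both together at 58 genes (0.211%). These cut-offs are AG's own counts. The flanking and edge peaks of AG in pistils were only 185 bp apart, and whether they are separate binding sites was not tested. The AG summits were spaced by 5168 bp in IM and by 1653 and 3631 bp in pistils. AG was the sole member with a summit inside the gene, in both tissues, as were 3.88% of genes in IM and 3.25% in pistils. Peaks covered 26.4% of the gene in IM and 24.6% in pistils, the highest shares in the clade in both tissues.

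**Figure D2:**
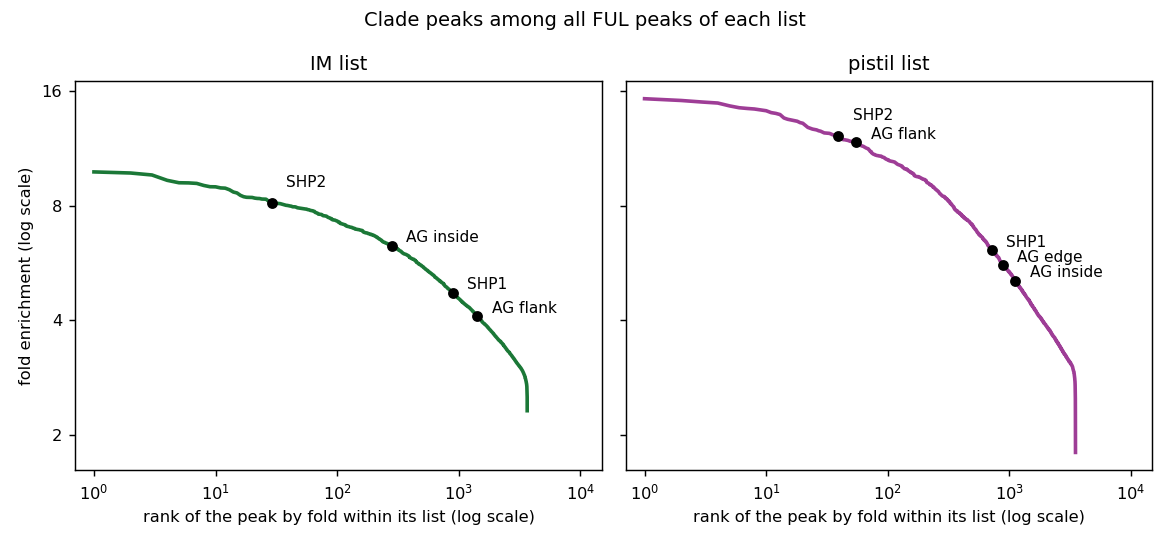
All peaks of the IM list (left) and the pistil list (right) ordered by fold, with rank on the x axis and fold enrichment on the y axis, both on log scales, and the clade's peaks marked as black points. SHP2 is near the top of both lists (29th and 39th), while the flanking site of AG is 1417th in IM and 55th in pistils.

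SHP2 had the strongest FUL peak of the clade in both tissues. In IM its fold was 8.14 and its −log10 p 184 (chromosome 2, 17819162 to 17820576, summit at 17819849). In pistils its fold was 12.2 and its −log10 p 469 (17818958 to 17820665, summit at 17819842). It was 29th of 3650 peaks by fold in IM and 39th of 3494 in pistils, and among peaks with exactly 1 partner it was 26th and 29th. The summits lay 265 bp and 272 bp outside the lower-coordinate end of the gene, and the peaks reached 463 bp and 552 bp into it. HVA22F, the next protein-coding gene, was 1304 bp and 1297 bp from the summits.

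SHP1, the close relative that shares the valve margin role, had a peak of lower fold in each list, also on the lower-coordinate side of the gene. Its fold was 4.72 in IM, with a −log10 p of 66.9 (chromosome 3, 21736953 to 21738393, summit at 21737433). In pistils its fold was 6.11 and its −log10 p 161 (21736701 to 21738760, summit at 21737351). It ranked 890th in IM and 715th in pistils, so that 75.6% and 79.5% of the peaks in the list had lower folds. The summits lay 727 bp and 809 bp from the gene, with the peaks reaching 234 bp and 601 bp into it, and AT3G58770 was 2106 bp and 2024 bp away. The pistil peak was 2060 bp wide, wider than 94.7% of pistil peaks. Both paralogs thus had 1 matched site, and the SHP2 peak was the higher in each list. Without strand it was not tested whether the sites lie at the same end of the genes.

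STK had no summit in the gene or within 3 kb in either list, as was true of 70.3% of protein-coding genes. No peak covered any part of the gene. The nearest summits, 4431 bp (IM) and 4442 bp (pistil) beyond its higher-coordinate end, were 11 bp apart and formed 1 matched site. The fold was 3.79 in IM (chromosome 4, 6245283 to 6246091), higher than 51.0% of IM peaks, and 3.53 in pistils (6245388 to 6246077), higher than 30.3% of pistil peaks. AT4G09965 was far nearer to this site, 26 bp and 37 bp from the summits. The lists do not show that FUL was absent from STK. Between the last listed peak before STK, 15686 bp away in IM and 18378 bp in pistils, and the site beyond it, 1 peak number was missing in IM and 3 in pistils. Whether these numbers were unlisted calls, where in these stretches they lay, and how strong they were, is not recorded in the lists.

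Most of the clade's peaks overlapped a peak of the other tissue, on counts too small to be read further. All 4 IM peaks overlapped a pistil peak and 4 of the 5 pistil peaks overlapped an IM peak, where 59.5% of all IM peaks and 63.4% of all pistil peaks did so. At AG, SHP1 and SHP2 at least 1 site was matched (14.6% of genes), and at AG at least 2 (1.17%). The 4 matched pairs had summits 7 bp (SHP2), 51 bp (AG inside), 82 bp (SHP1) and 167 bp (AG flank) apart, where the SHP1 summits bear different letters. Over all 2237 overlapping pairs the median distance was 44 bp, with quartiles of 18 and 102 bp. The SHP2 summits were thus closer than most, with only 9.48% of pairs nearer. The other pairs lay beyond the median, with 54.1% (AG inside), 68.3% (SHP1) and 83.9% (AG flank) of pairs nearer. At SHP1, SHP2 and the AG flank the whole IM peak lay within the pistil peak, covering 70.0%, 82.8% and 79.9% of it. At the site inside AG the reverse held, and the pistil peak covered 47.5% of the IM peak.

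**Figure D3:**
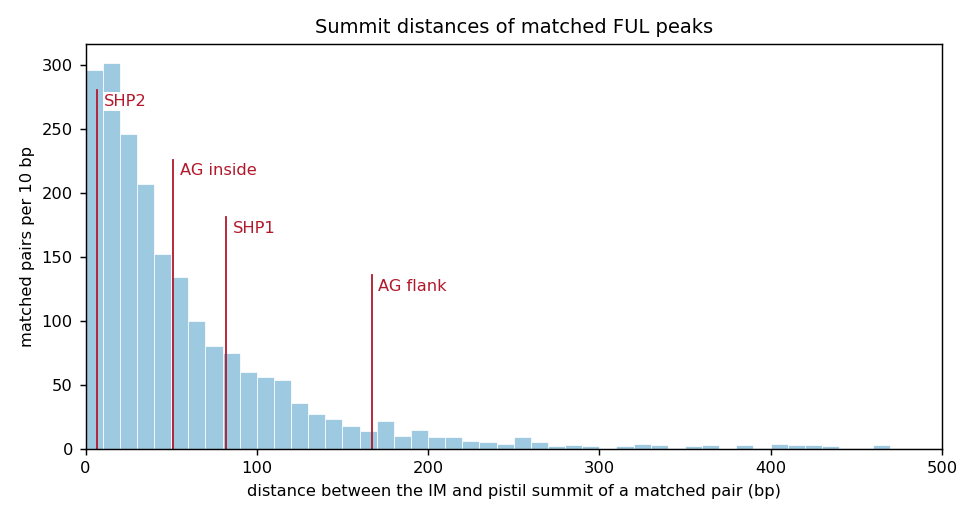
Number of matched pairs of peaks (y axis, per 10 bp) by the distance between their IM and pistil summits (x axis, bp), with the clade's 4 pairs as red lines. SHP2 (7 bp) is in the lowest bin, AG inside (51 bp) and SHP1 (82 bp) lie beyond the median of 44 bp, and the AG flank (167 bp) is in the tail; 218 pairs at 500 bp or more are not drawn.

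The wider family gave the clade its context. MIKC-type genes are the MADS-box genes with plant-specific protein interaction domains, to which FUL itself belongs. Of the other 35 MIKC genes, 23 had a summit in IM and 20 in pistils, 19 of them in both, and 11 had none, as STK had none. Over all protein-coding genes these shares were 23.7%, 21.3%, 15.3% and 70.3%. The median of the highest folds among those with a summit was 5.53 in IM and 6.06 in pistils, against 3.90 and 4.32 over all genes with a summit. By highest fold, SHP2 was 4th among the 26 MIKC genes with an IM summit and 3rd among the 23 with a pistil summit. AG was 11th in IM and 5th in pistils, and SHP1 16th and 12th. The AG places rest on different sites, the inside one in IM and the flanking one in pistils. AG was the sole MIKC gene with 3 pistil summits, while 9 of the other 35 also had 2 or more in IM. With SHP2 in both lists stood SOC1, a flowering integrator (8.36 in IM and 14.3 in pistils), AGL18, which delays flowering (9.63 and 11.9), and SEP3, the partner of AG in floral complexes (8.37 and 11.1). The sole pistil summit of SEP3 lay 2709 bp from the gene, and the nearer of its 2 IM summits 653 bp.

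The MIKC genes most like each member were sought by the pair of percentile ranks of the highest fold in the lists, over 2 tissues and 19 other genes with a summit in both. Nearest to AG was TT16, the B-sister gene of the seed coat, 1.30 percentile points away, with folds of 6.12 in IM and 12.3 in pistils, followed by AGL15 (3.42 points) and SEP3 (7.11). Nearest to SHP1 were the petal and stamen gene PI (3.99 points), SEP4 (6.10) and AGL21 (11.9). Nearest to SHP2 were AGL18 (0.75 points), SOC1 (0.88) and SEP3 (0.94). With 2 values per gene such likeness describes height in the lists and nothing more, and the values can come from different sites, as at AG.

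**Figure D4:**
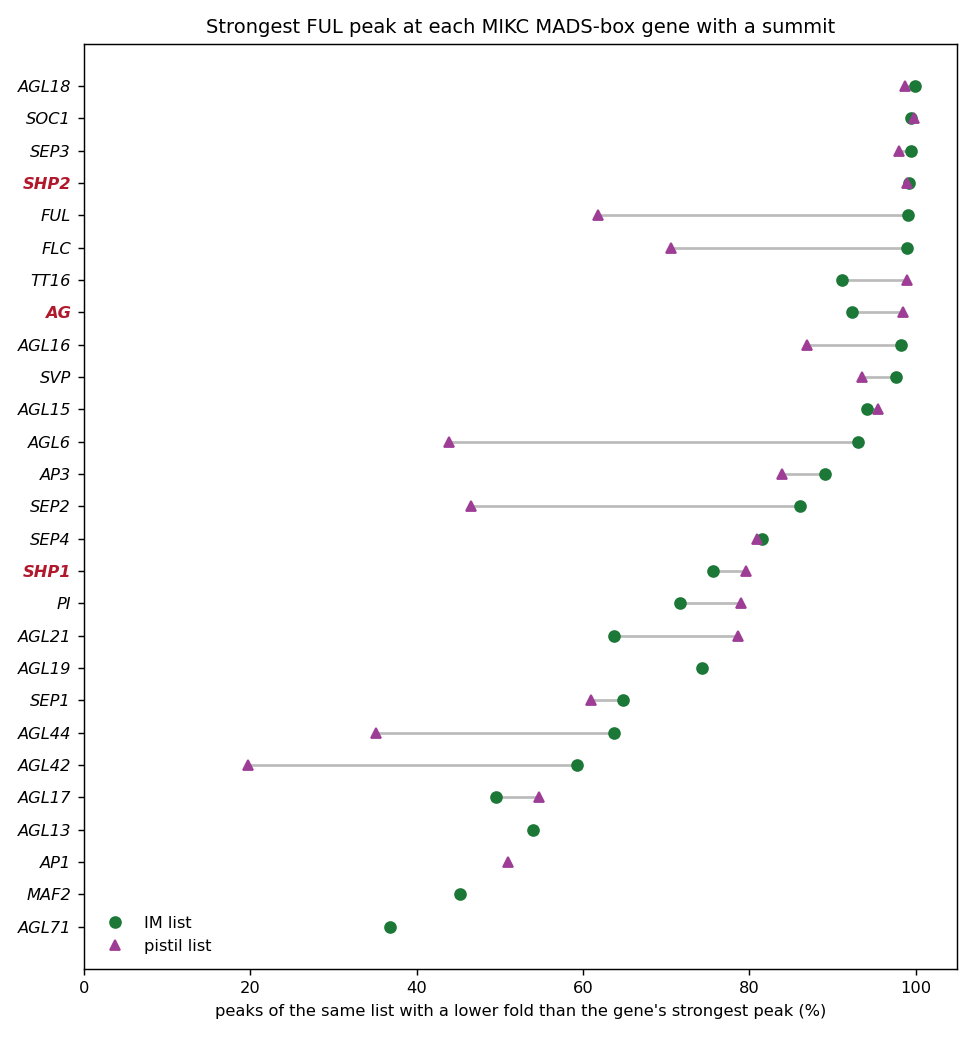
Strongest FUL peak at each of the 27 MIKC genes with a summit in either list, given as the share of peaks in the same list with a lower fold (x axis, percent; circles IM, triangles pistil), with clade members in red. SHP2 stands above 98.9% of pistil and 99.2% of IM peaks, AG above 98.4% and 92.3%, and SHP1 above 79.5% and 75.6%. The AG points are of different sites, flanking in pistils and inside in IM. STK has no point.

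Genes known to regulate the clade were followed as a list, in which FUL, SEP3 and AP1 are also MIKC genes. Of these 17 regulators, 10 had a summit in IM and 11 in pistils, 9 of them in both, against 23.7%, 21.3% and 15.3% of all genes. This list, like those of the MIKC genes and the targets, was chosen with earlier results of these data known. AP2, which keeps AG out of the outer floral organs, had folds of 7.76 in IM and 15.1 in pistils, and SEP3 the values given above. FUL itself had 8.10 in IM, with the summit 82 bp from the gene, and 4.68 in pistils, with the summit 2438 bp away. These peaks overlapped. All plants also carried the pFUL:FUL-GFP transgene, and its part in the signal at FUL was not tested. JAG, which acts on valve margin genes in the fruit, had highest folds of 4.48 and 9.54. It had 2 summits in IM and 3 in pistils, the same counts as AG, but only 1 matched site, so these folds may be of different sites. LFY, which activates AG, had 4.40 and 5.54. WUS, which activates AG together with LFY, had a summit in IM (3.07) and none in the pistil list; its fold was higher than 16.4% of IM peaks. SEU, CLF, ANT, PAN and YAB3 had none.

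Of 16 genes known to act downstream of the clade, 10 had a summit in IM, 7 in pistils and 6 in both, against 23.7%, 21.3% and 15.3% of all genes. ADPG2, which encodes a polygalacturonase of the pod's separation layer, had folds of 6.18 in IM and 10.2 in pistils. HEC1, a bHLH gene of the transmitting tract, had 6.02 and 6.66. VDD, an embryo sac gene bound by STK, had 3.97 and 5.31. GA3OX1, a gibberellin synthesis gene, had 4.02 and 2.78, in peaks that did not overlap. Its pistil fold was higher than only 1.12% of pistil peaks. KNU, through which AG ends WUS expression, had 2 summits in IM (highest fold 4.80) and none in the pistil list. IND, which acts below SHP1 and SHP2 in the valve margin, had 1 in pistils (4.23) and none in the IM list. Of the early targets of AG in stamens and carpels, NZZ and CRC had no summit in either list. The median of the highest folds was 3.96 in IM and 4.23 in pistils, close to the 3.90 and 4.32 of all genes with a summit. That of the regulators was 4.43 in IM, on 10 genes, and 7.56 in pistils, on 11. The IM median includes the MIKC genes SEP3 (8.37) and FUL (8.10). Without these, the regulators' IM folds ran from 3.07 (WUS) to 7.76 (AP2), on both sides of 3.90, so their IM median is not read further.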

How the data were processed

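FUL ChIP-seq peaks from 2 tissues were analysed as deposited, 1 list per tissue in narrowPeak layout. Per the submitters' processing notes, the build was TAIR10 and the tools were MACS2 2.1.0, Bowtie 1.1.2, Picard 2.60 and deepTools, whose roles are not stated. The fold enrichment (a ratio), the −log10 p and the score of each peak are the authors' deposited values at its summit. Peak names hold the word pooled, so replicates were called together. How peaks were selected for the lists, and how the input was treated, is not given in the sources used here.

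Summits (peak start plus offset) were assigned to protein-coding genes of a RefSeq table of assembly TAIR10.1, matched by locus, 4 of 4 members. Because the builds are named differently, none of its coordinates are printed. Distances rest on a check in which 29.5% of IM and 26.0% of pistil summits lay inside genes, against at least 60.2% and 56.3% after moving them by 2000 to 10000 bp. Moves below 2000 bp were not tried, so the check does not cover smaller offsets, on which short distances depend. Peaks were matched by an overlap of at least 1 bp. Folds were compared within a list. Lists of MIKC genes, regulators and targets were written by locus. The members and lists were chosen with earlier results of these data known. Among other genes, those named are the 3 most like each member, the regulators and targets with summits in both tissues and the 3 highest folds in either list, and genes whose role made their presence or absence of interest, chosen after their values were seen. Gene assignment and matching were tested on simulated peaks. The planned search for CArG boxes and the protein alignment were not run. Python 3.11.15 with pandas 2.3.3 was used.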

Additional observations from a re-analysis of the deposited data

How the results depend on the processing

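The counts of members with a summit (3 in IM, 3 in pistils) remained 3 in each tissue with a window of 1 kb, by the nearest gene, by any part of the peak, with 1 threshold on −log10 p (34.4) for both lists and with peaks at or above their list's median fold. The last 2 of these settings could not lower the counts or the matched sites. The threshold is the lowest value of the pistil list, and the lowest −log10 p of a clade summit was 53.1. Each clade summit also had a fold above at least 61.2% of the peaks in its list. With 5 kb the counts of members became 4 and 4, because STK gained the site beyond its end. A wider window can only add summits, at these as at all other genes. With 1 kb the AG flanking site was lost, leaving 1 summit in IM and a highest fold of 5.59 in pistils, and with 5 kb SHP1 had 2 pistil summits. The 4 matched sites were 3 when summits had to lie within 100 bp, which the AG flank does not meet, and 4 at 300 bp, at an overlap of 0.5 of the shorter peak and at the common threshold. MIKC genes with a pistil summit fell from 23 to 15 at 1 kb and were 19 by the nearest gene. Those with an IM summit were 26, 21 and 22. The shares of all genes given above are for the 3 kb rule. Shares at the other settings are not given here, so counts of members and MIKC genes at them cannot be set against all genes. No paired analysis was possible because each tissue has 1 pooled list, and no replicate could be left out for the same reason. The unknown depth and the unstated selection of peaks limit every statement on absence.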

Other observations

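Between 3 and 10 kb from the clade, 3 further summits were each found in 1 list. In pistils a peak with a fold of 8.11, higher than 90.7% of pistil peaks, had its summit 5821 bp from SHP2 (chromosome 2, 17829471 to 17830289), nearest to CYP718 at 1574 bp. Another pistil peak, with a fold of 4.03, lay 3985 bp from SHP1 and 178 bp from GAUT15, which belongs to a family of pectin synthesis genes (chromosome 3, 21745947 to 21746937). In IM a peak with a fold of 3.94 lay 6131 bp from SHP1, inside AT3G58760 (21731450 to 21732537). None of these overlapped a peak of the other list.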
